A study of Rattus norvegicus with 8 samples.

Results

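The genes described here encode the enzymes and transporters that build, sulfate and trim glycosaminoglycans (GAGs), measured by RNA-seq in primary rat nucleus pulposus (NP) cells with and without Sirt6 knockdown. They were chosen by gene name from a list of 40, of which 37 had a named row in the deposited tables. All 37 passed the filter on low counts, out of 13250 genes tested in all. Chst7, Ndst2 and Impad1 had no row under those names and were not analysed here. The NP is the soft centre of the intervertebral disc, and Sirt6 is a nuclear NAD-dependent deacylase that acts on histones. The cells came from 4 adult Sprague Dawley rats and were grown in DMEM with 10% fetal bovine serum. Both groups were transduced with lentivirus: 4 libraries with ShCtrl, a control hairpin (Sirt6-Ctrl), and 4 with ShSirt6, a mixture of hairpin clones against Sirt6 (Sirt6-KD). All libraries are therefore from cultured, virus-treated cells in which Sirt6 was lowered and not deleted. The comparison asks which transcripts differ when Sirt6 is depleted.

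GAGs are long chains of repeating sugars that hold water and bind growth factors, and in the NP the chondroitin sulfate on aggrecan gives the tissue its swelling pressure. A chondroitin or heparan sulfate chain starts on a serine of a core protein with a short linker of xylose, galactose and glucuronic acid. The first sugar added after the linker decides whether chondroitin or heparan sulfate follows, the chain is then polymerised in the Golgi, and sulfotransferases modify it. Hyaluronan is made without core protein, linker or sulfate, by synthases at the plasma membrane.

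Sirt6, the targeted gene, had 56.4, 54.3, 52.5 and 47.6 CPM (counts scaled to library size with TMM factors) in Sirt6-Ctrl replicates 1 to 4 and 21.8, 21.0, 19.2 and 20.6 CPM in Sirt6-KD replicates 1 to 4. Every Sirt6-KD library was below every Sirt6-Ctrl library. The log2 fold change was -1.35 (SE 0.13, adjusted p = 0.000713, n = 4 per group, edgeR quasi-likelihood test with Benjamini-Hochberg adjustment over all rows). The libraries held 31994838 to 40124813 counts, and 3 counts, the most that a count of 0 allows, correspond to 0.0727 to 0.0928 CPM. Reads of the ERCC spike-ins, synthetic RNAs added to the samples, took 6.27% and 9.80% of the counts in Sirt6-Ctrl replicates 1 and 2, 3.08% and 2.97% in replicates 3 and 4, and 2.15% to 2.47% after knockdown (p = 0.0286 by exact permutation, two-sided, which 4 against 4 libraries cannot go below). With libraries scaled to the spike-ins instead of TMM, the log2 fold change of Sirt6 was -0.36 (edgeR, adjusted p = 0.567, range over alternatives 3.84e-20 to 0.567) and the median over all genes was 0.94, so directions below are relative to the other genes of a library.

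The promoters of the 4 genes of the linker and chondroitin steps that passed the test are shown to set the genes that rose beside those that fell. Each run is the 250 bases before the RefSeq start on the GRCr8 build, 5′ to 3′ on the strand of the gene, with GC boxes (GGGCGG on either strand, printed CCGCCC on the other) in capitals. The submitters' notes name the Rnor 6.0 build for the series, and the coordinates were not carried over between builds. Chst15 is at chr1:196491184-196491433 on the minus strand and Chst11 at chr7:22630442-22630691 on the minus strand. B3gat3 is at chr1:215246232-215246481 on the plus strand and Chpf at chr9:84416524-84416773 on the minus strand. The Chst15 start lies inside the annotated span of its gene, so it is one of several annotated starts.
Chst15: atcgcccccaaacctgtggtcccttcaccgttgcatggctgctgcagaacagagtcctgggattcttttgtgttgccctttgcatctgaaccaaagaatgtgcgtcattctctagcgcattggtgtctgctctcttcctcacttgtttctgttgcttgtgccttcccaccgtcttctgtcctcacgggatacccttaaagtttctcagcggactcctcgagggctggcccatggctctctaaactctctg
Chst11: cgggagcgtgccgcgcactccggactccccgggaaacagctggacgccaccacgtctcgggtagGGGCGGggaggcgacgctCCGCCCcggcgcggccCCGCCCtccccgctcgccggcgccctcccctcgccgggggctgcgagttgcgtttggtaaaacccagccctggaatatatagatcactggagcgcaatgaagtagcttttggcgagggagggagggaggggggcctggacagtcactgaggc
B3gat3: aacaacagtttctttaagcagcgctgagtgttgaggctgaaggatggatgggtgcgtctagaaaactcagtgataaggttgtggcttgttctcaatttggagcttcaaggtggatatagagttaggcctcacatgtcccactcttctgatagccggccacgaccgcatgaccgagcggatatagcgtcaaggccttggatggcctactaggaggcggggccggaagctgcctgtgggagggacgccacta
Chpf: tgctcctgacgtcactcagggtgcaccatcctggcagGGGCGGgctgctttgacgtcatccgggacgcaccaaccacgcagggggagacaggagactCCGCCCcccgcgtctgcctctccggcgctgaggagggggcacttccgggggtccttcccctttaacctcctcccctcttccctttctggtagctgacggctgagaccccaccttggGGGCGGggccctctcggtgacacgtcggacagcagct
Chst11 had 3 GC boxes, beginning 186, 168 and 152 bases before the start, and Chpf had 3, beginning 213, 153 and 37 bases before it. Chst15 and B3gat3 had none. The G and C content was 52.8% for Chst15, 70.4% for Chst11, 53.6% for B3gat3 and 67.6% for Chpf. Among the 4 shown, a GC-rich promoter with GC boxes thus occurred once in the 2 that rose and once in the 2 that fell. Ugdh of the supply step, also called higher and not shown, had 66.0% G and C and 2 GC boxes, 187 and 106 bases before the start. No promoter was available for Sulf1. Of the 37 genes, 28 had a promoter in the RefSeq table, and 16 of these 28 held a GC box in this window, against 30.5% of all 33469 promoters. The median G and C content was 66.4% for the 28 and 51.2% for all promoters, which were not limited to genes tested here. The GC box shares were not adjusted for either difference. TATAAA was found in 3 of the 28 (12.9% of all promoters), the E-box CACGTG in 1 (5.59%), ACGTGGC, the core of the Golgi stress response element, in 2 (2.0%) and the AP-1 motif TGANTCA in 0 (6.34%). Each motif was searched on both strands. The ACGTGGC and CACGTG matches in Slc26a2 overlapped. A match describes the letters only.

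A gene was called where its adjusted p was below 0.05 and its fold change above 1.5. By that rule 4 of the 37 genes were higher in Sirt6-KD (8.02% of all genes tested were) and 2 were lower (10.7% of all genes). The genes called higher were Chst15 and Chst11, which sulfate chondroitin, Sulf1, which removes sulfate from heparan sulfate, and Ugdh, which makes UDP-glucuronic acid. B3gat3, which completes the linker, and Chpf, a chondroitin polymerising factor, were called lower, although with spike-in scaling their log2 fold changes turned to 0.15 and 0.025. Without the fold limit Csgalnact2 and Hs2st1 also passed, making 6 higher (9.11% of all genes) and 2 lower (12.8% of all genes). In 10 of the 37 every Sirt6-KD library was above every Sirt6-Ctrl library (14.8% of all genes), and in 3 every Sirt6-KD library was below (15.6% of all genes). Over the 37 genes the median log2 fold change was 0.23, against -0.016 over all genes. Of the 37, 24 were positive and 13 negative (6511 and 6739 over all genes). The counts called lay near the background shares. In bulk RNA a change in the level per cell and a change in the share of cells that express a gene cannot be told apart.

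**Figure D1:**
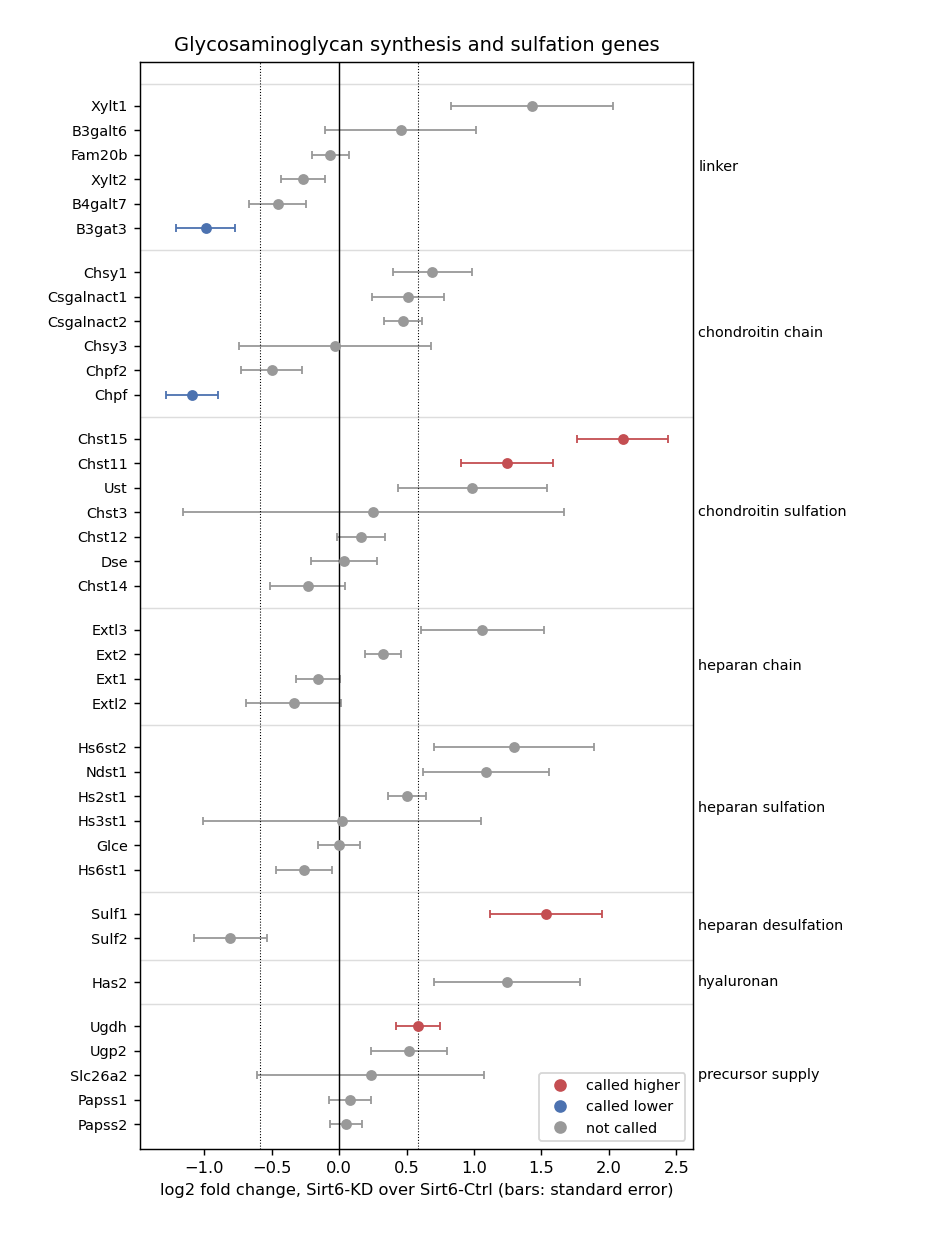
Log2 fold change of each of the 37 genes (x axis, Sirt6-KD over Sirt6-Ctrl, TMM scaling, bars are standard errors) in rows grouped by step. The 4 genes called higher are red and the 2 called lower are blue (0.15 and 0.025 with spike-in scaling, neither called). Dotted lines mark the fold limit of 1.5, log2 0.585.

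The linker step held 6 genes, of which 0 were called higher and 1 lower, with a median log2 fold change of -0.17. B3gat3 transfers the glucuronic acid that completes the linker. Its level was 187, 204, 93.7 and 149 CPM in the Sirt6-Ctrl group and 80.7, 78.1, 67.3 and 92.9 CPM in Sirt6-KD. All 4 Sirt6-KD values lay below the lowest Sirt6-Ctrl value, by a narrow margin between Sirt6-KD replicate 4 and Sirt6-Ctrl replicate 3. The mean fell from 158 ± 48.9 to 79.7 ± 10.5 CPM (SD, n = 4), a log2 fold change of -0.99 (SE 0.22, edgeR adjusted p = 0.0136) that turned to 0.15 with spike-in scaling. Its 2 highest libraries were also the 2 with the highest spike-in share, and without both of them the log2 fold change was -0.59 (edgeR adjusted p = 0.0727, range over all alternatives 0.000825 to 0.798).

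The other linker genes did not pass the test. Xylt1, one of a pair of xylosyltransferases that start the linker, gave the largest positive log2 fold change of the step, 1.43 (SE 0.60, adjusted p = 0.113), with 15 to 49 reads per control library and 53 to 198 per knockdown library. These groups did not overlap. DESeq2 called Xylt1 higher (log2 fold change 1.45, adjusted p = 0.0372, range over alternatives 0.0372 to 0.369). Its paralogue Xylt2 had a log2 fold change of -0.27 (adjusted p = 0.27). B4galt7 and B3galt6, which add the first and the second galactose, were at -0.46 and 0.46 (adjusted p = 0.142 and 0.598). B3galt6 had 31 reads in Sirt6-Ctrl replicate 2 and 216 to 461 in the other libraries. Without Sirt6-Ctrl replicate 3, B4galt7 was called lower, with a log2 fold change of -0.59 (adjusted p = 0.0421, range over alternatives 0.0421 to 0.924). Fam20b, the kinase that phosphorylates the linker xylose, was at -0.066 (adjusted p = 0.766).

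Chain building of chondroitin sulfate held 6 genes, with 0 called higher, 1 called lower and a median log2 fold change of 0.22. Chpf is needed by the chondroitin synthases for polymerisation. It had 426, 462, 248 and 338 CPM in the Sirt6-Ctrl group and 184, 162, 150 and 196 CPM in Sirt6-KD. Again the groups did not overlap and Sirt6-Ctrl replicate 3 was the closest control. The mean fell from 369 ± 96.1 to 173 ± 21.0 CPM (SD, n = 4), a log2 fold change of -1.09 (SE 0.20, edgeR adjusted p = 0.00622), which turned to 0.025 with spike-in scaling. Leaving out any single library, or both Sirt6-Ctrl libraries with the high spike-in share, did not end this call.

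The genes that start and extend the chondroitin chain lay on both sides of 0. Csgalnact1 and Csgalnact2 add the first N-acetylgalactosamine, which commits the linker to chondroitin. Csgalnact2 was at 93.5 to 134 CPM in the Sirt6-Ctrl group and 139 to 164 CPM in Sirt6-KD, without overlap. Its log2 fold change was 0.48 (SE 0.14, adjusted p = 0.0377), below the fold limit. Without Sirt6-Ctrl replicate 3 it passed that limit, at 0.60 (adjusted p = 0.00576, range over alternatives 0.00576 to 0.959). Csgalnact1 had 13.8 CPM in Sirt6-Ctrl replicate 1, 31.0 to 39.7 CPM in the other controls and 38.9 to 44.7 CPM in Sirt6-KD, with a log2 fold change of 0.51 (adjusted p = 0.196). Of the synthases, Chsy1 was at 0.69 (SE 0.29, adjusted p = 0.113) and Chsy3 at -0.028 (SE 0.71, adjusted p = 0.984). Chsy3 was the least settled of this step, with 5.72, 9.15, 19.4 and 83.5 CPM in Sirt6-Ctrl. Its sign turned under several alternatives, limma-voom among them (0.55). Without Sirt6-Ctrl replicate 4 Chsy1 was called higher, at 0.97 (adjusted p = 0.0319, range over alternatives 0.0319 to 0.591). Chpf2, the paralogue of Chpf, had a log2 fold change of -0.50 (SE 0.23, adjusted p = 0.136). Without Sirt6-Ctrl replicate 3 it was called lower, at -0.64 (adjusted p = 0.0458, range over alternatives 0.0458 to 0.853), and with spike-in scaling it was at 0.46.

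The chondroitin sulfation step held 7 tested genes, the epimerase Dse included. Of these 2 were called higher and 0 lower (8.02% and 10.7% of all genes), with a median log2 fold change of 0.25. Chst15 adds a second sulfate to the N-acetylgalactosamine of chondroitin 4-sulfate, which gives the disulfated chondroitin sulfate E unit. It had 3.56, 3.31, 4.65 and 1.67 CPM in the Sirt6-Ctrl group and 14.7, 14.9, 15.7 and 11.4 CPM in Sirt6-KD. The lowest Sirt6-KD library was well above the highest Sirt6-Ctrl library. In reads these were 69 to 158 and 384 to 601. The mean rose from 3.30 ± 1.23 to 14.2 ± 1.91 CPM (SD, n = 4), which is a 4.29-fold change (log2 2.10, SE 0.33, edgeR adjusted p = 0.00421). Of the 37 genes it had the largest fold change and was called in all 19 alternatives, although dropping the fold limit could not end a call. With spike-in scaling it was still called (log2 fold change 3.09, edgeR adjusted p = 0.0467, range over alternatives 1.29e-08 to 0.0467).

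Chst11 is the main chondroitin 4-O-sulfotransferase of cartilage, so its product is the substrate of Chst15. It had 21.6, 11.8, 47.3 and 36.1 CPM in the Sirt6-Ctrl group and 68.9, 67.2, 71.1 and 69.9 CPM in Sirt6-KD. The Sirt6-KD libraries lay close together and above all controls, which were spread over a wide range. The mean rose from 29.2 ± 15.7 to 69.3 ± 1.63 CPM (SD, n = 4), a log2 fold change of 1.25 (SE 0.34, edgeR adjusted p = 0.0277). Without Sirt6-Ctrl replicates 1 and 2, the lowest 2, the log2 fold change was 0.74 and the gene was still called. The call was lost without Sirt6-Ctrl replicate 1 alone (1.14, adjusted p = 0.0875) and without each Sirt6-KD library in turn (1.23 to 1.27, adjusted p = 0.0622 to 0.0691). The adjusted p ranged from 0.00314 to 0.177 over all alternatives.

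The remaining chondroitin sulfation genes were not called. Chst12, a second 4-O-sulfotransferase, was at 23.4 to 34.2 CPM in the Sirt6-Ctrl group and 26.3 to 35.3 CPM in Sirt6-KD (log2 fold change 0.16, adjusted p = 0.552). Ust, which adds sulfate to the uronic acid at position 2-O, had no overlap between the groups, with 0.619 to 6.03 CPM and 6.98 to 9.15 CPM. Its log2 fold change was 0.99 (SE 0.55, adjusted p = 0.224), and Sirt6-Ctrl replicate 2 held only 20 reads of it. Dse, the epimerase that turns chondroitin into dermatan, was at 0.037 (adjusted p = 0.935) and Chst14, which sulfates dermatan at 4-O, was at -0.23 (adjusted p = 0.585). Chst3, a 6-O-sulfotransferase, was low and uneven, with 0 to 38 reads per library and a log2 fold change of 0.25 (SE 1.41, adjusted p = 0.921). Its reads were 0 in Sirt6-Ctrl replicate 2 and in Sirt6-KD replicate 2, so no difference could be seen at this depth.

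**Figure D2:**
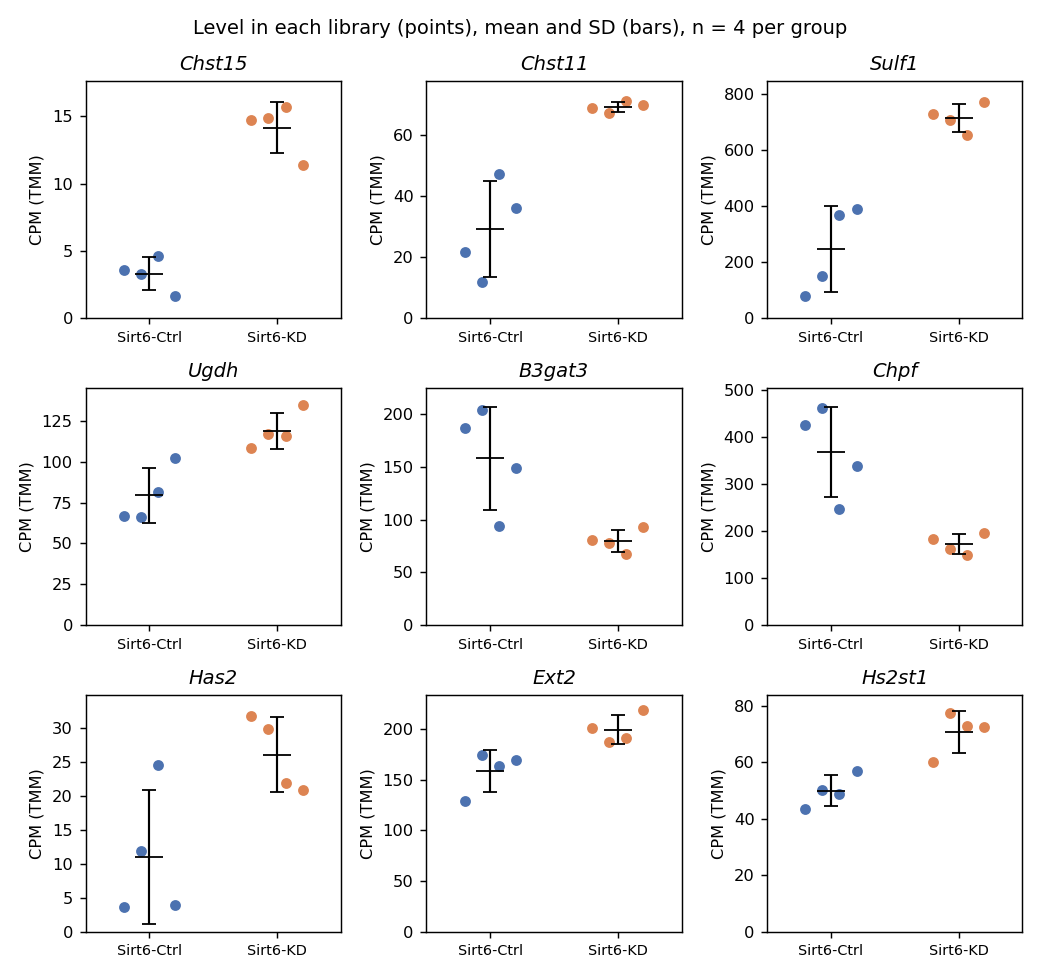
TMM-scaled CPM (y axis, from 0, a separate scale for each gene) of 9 genes in each of the 4 Sirt6-Ctrl (blue) and 4 Sirt6-KD (orange) libraries, with horizontal ticks at the mean and bars of 1 SD. The groups do not overlap for Chst15, Chst11, Sulf1, Ugdh, B3gat3, Chpf, Ext2 and Hs2st1, and overlap for Has2. With spike-in scaling the log2 fold changes of B3gat3 and Chpf are 0.15 and 0.025, neither called, beside a median of 0.94 over all genes.

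Heparan sulfate is polymerised by Ext1 and Ext2. Of the 4 chain genes, 0 were called higher and 0 lower (8.02% and 10.7% of all genes), with a median log2 fold change of 0.086. The smallest p of the step was that of Ext2, which had 129, 174, 164 and 170 CPM in the Sirt6-Ctrl group and 201, 187, 191 and 218 CPM in Sirt6-KD. All Sirt6-KD values were above all control values. The mean went from 159 ± 20.7 to 199 ± 14.0 CPM (SD, n = 4), and the log2 fold change of 0.33 did not pass the test (SE 0.13, edgeR adjusted p = 0.0988). Ext1, its partner in the polymerase, was at 87.9 to 123 CPM and 75.8 to 110 CPM (log2 fold change -0.15, adjusted p = 0.54). Extl3, which adds the first N-acetylglucosamine and so commits the linker to heparan sulfate, had 50.5, 15.9, 92.8 and 115 CPM in the Sirt6-Ctrl group and 122 to 175 CPM in Sirt6-KD. These groups did not overlap, but the controls differed widely and the log2 fold change of 1.06 was not called (SE 0.45, adjusted p = 0.118). In limma-voom it was called, at 1.36 (adjusted p = 0.0498, range over alternatives 0.0498 to 0.412). Extl2, which can end the linker by adding N-acetylhexosamine, was at -0.34 (adjusted p = 0.53).

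The heparan sulfation step held 6 tested genes, the epimerase Glce included. In it 0 were called higher and 0 lower (8.02% and 10.7% of all genes), with a median log2 fold change of 0.26. Hs2st1, the uronyl 2-O-sulfotransferase, had the smallest p. It had 43.6, 50.3, 48.8 and 57.0 CPM in the Sirt6-Ctrl group and 60.1, 77.5, 72.9 and 72.4 CPM in Sirt6-KD, without overlap. The mean went from 49.9 ± 5.55 to 70.7 ± 7.46 CPM (SD, n = 4). The log2 fold change of 0.50 (SE 0.14, edgeR adjusted p = 0.0279) was within the fold limit and so was not a call.

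Ndst1 starts heparan sulfate modification by replacing N-acetyl groups with N-sulfate. Its level was 9.45, 2.94, 14.6 and 22.1 CPM in the Sirt6-Ctrl group and 20.4, 24.6, 27.6 and 32.0 CPM in Sirt6-KD. Only Sirt6-Ctrl replicate 4 reached into the Sirt6-KD range. The log2 fold change was 1.09 (SE 0.47, adjusted p = 0.119). Limma-voom called it higher (1.34, adjusted p = 0.047), and so did edgeR without Sirt6-Ctrl replicate 4 (1.53, adjusted p = 0.04, range over alternatives 0.04 to 0.411). Hs6st2, a 6-O-sulfotransferase, had 8.85, 5.72, 27.8 and 61.6 CPM in the Sirt6-Ctrl group and 59.7, 58.7, 59.8 and 77.8 CPM in Sirt6-KD, with a log2 fold change of 1.30 (SE 0.59, adjusted p = 0.141). It too was called in limma-voom (1.81, adjusted p = 0.0278) and without Sirt6-Ctrl replicate 4 (2.18, adjusted p = 0.0159, range over alternatives 0.0159 to 0.423).

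Hs6st1, the other 6-O-sulfotransferase measured, was at -0.26 (adjusted p = 0.394), with 25.5 to 44.3 CPM and 23.2 to 28.9 CPM. Glce, the epimerase that forms iduronic acid in heparan sulfate, had a mean of 50.1 ± 8.12 CPM in the Sirt6-Ctrl group and 50.02 ± 5.59 CPM in Sirt6-KD (SD, n = 4), a log2 fold change of -0.0012 whose sign turned under most alternatives. Hs3st1, which makes the antithrombin-binding site, was scattered between 2 and 141 reads in Sirt6-Ctrl and 18 and 103 in Sirt6-KD (log2 fold change 0.020, SE 1.03, adjusted p = 0.992).

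The extracellular 6-O-endosulfatases Sulf1 and Sulf2 remove sulfate from finished heparan sulfate and thereby alter growth factor binding. Of the 2, 1 was called higher and 0 lower (8.02% and 10.7% of all genes). Sulf1 had 80.2, 150, 369 and 388 CPM in the Sirt6-Ctrl group and 728, 706, 653 and 771 CPM in Sirt6-KD. Every Sirt6-KD library was far above the controls, among which replicates 1 and 2 were the lowest. The mean rose from 247 ± 155 to 714 ± 49.2 CPM (SD, n = 4), a log2 fold change of 1.53 (SE 0.41, edgeR adjusted p = 0.026). Without Sirt6-Ctrl replicates 1 and 2 it was 0.93 and still called. Without Sirt6-Ctrl replicate 2 alone the adjusted p was 0.0511 (log2 fold change 1.37), and without each Sirt6-KD library it was 0.0594 to 0.065 (1.52 to 1.58). Over all alternatives the adjusted p ranged from 0.00109 to 0.148.

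Sulf2 lay on the other side. It had 12.5, 10.3, 8.42 and 8.82 CPM in the Sirt6-Ctrl group and 4.86, 4.84, 5.87 and 7.28 CPM in Sirt6-KD, without overlap. The log2 fold change was -0.81 (SE 0.27, edgeR adjusted p = 0.0569), just outside the test, and 0.25 with spike-in scaling. DESeq2 called it lower (-0.79, adjusted p = 0.0121), as did edgeR without Sirt6-Ctrl replicate 3 (-0.88, adjusted p = 0.0465, range over alternatives 0.0121 to 0.73).

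Has2, the 1 hyaluronan synthase among the 37 genes, had 3.65, 11.9, 24.6 and 3.98 CPM in the Sirt6-Ctrl group and 31.7, 29.8, 22.0 and 20.9 CPM in Sirt6-KD. The groups overlapped through Sirt6-Ctrl replicate 3, which was above 2 of the Sirt6-KD libraries. The means were 11.01 ± 9.79 and 26.1 ± 5.47 CPM (SD, n = 4), and the log2 fold change of 1.25 did not pass the test (SE 0.54, edgeR adjusted p = 0.121). Without Sirt6-Ctrl replicate 3 it was called higher, at 2.004 (adjusted p = 0.00772), and limma-voom with all libraries called it at 1.72 (adjusted p = 0.022, range over alternatives 0.00772 to 0.398).

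The genes that supply precursors numbered 5, with 1 called higher and 0 lower (8.02% and 10.7% of all genes). Their median log2 fold change was 0.23. Ugdh oxidises UDP-glucose to UDP-glucuronic acid, which chondroitin, heparan sulfate and hyaluronan all contain in some form. It had 67.0, 66.3, 81.8 and 102 CPM in the Sirt6-Ctrl group and 109, 117, 116 and 135 CPM in Sirt6-KD, without overlap. The mean rose from 79.4 ± 17.0 to 119 ± 11.1 CPM (SD, n = 4), a log2 fold change of 0.59 (SE 0.16, edgeR adjusted p = 0.0272). That value was at the fold limit itself. Without Sirt6-Ctrl replicate 1 or 2 it was 0.53 (adjusted p = 0.0765) and 0.52 (0.0446), without both it was 0.38 (0.1), and without each Sirt6-KD library 0.55 to 0.63 (0.0571 to 0.0737), so that the call was lost in each case. The adjusted p over all alternatives ran from 0.00769 to 0.715.

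The other supply genes were not called. Ugp2, which makes UDP-glucose, was at 153 to 449 CPM in the Sirt6-Ctrl group and 402 to 523 CPM in Sirt6-KD (log2 fold change 0.52, SE 0.28, adjusted p = 0.207). The synthases of the sulfate donor PAPS lay near 0, Papss1 at 0.081 (SE 0.15, adjusted p = 0.741) and Papss2 at 0.051 (SE 0.12, adjusted p = 0.789). Papss2 was the steadiest gene of the set, with 80.1 to 91.2 CPM in the Sirt6-Ctrl group and 80.0 to 99.5 CPM in Sirt6-KD. Slc26a2, the sulfate transporter of cartilage, had 2 reads in Sirt6-Ctrl replicate 2 and 88 to 200 in the other libraries (log2 fold change 0.23, SE 0.84, adjusted p = 0.873).

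**Figure D3:**
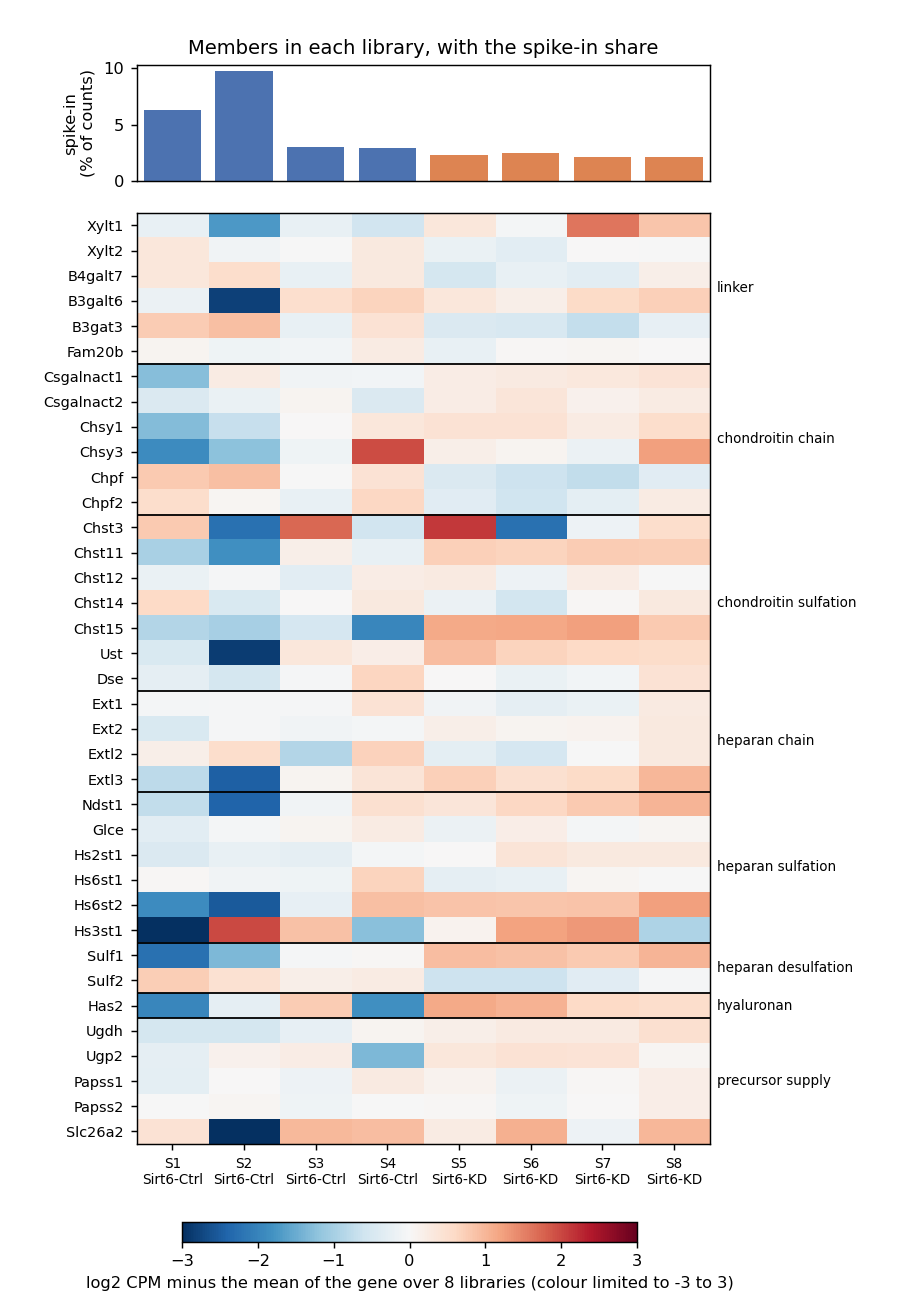
Each of the 37 genes (rows, by step) in each library (columns, S1 to S4 are Sirt6-Ctrl replicates 1 to 4 and S5 to S8 are Sirt6-KD replicates 1 to 4) as log2 CPM minus the mean of the gene over the 8 libraries, blue below and red above, with the spike-in share of each library in percent as bars on top. The controls differ among themselves more than the Sirt6-KD libraries do in Chst11, Sulf1, Extl3, Ndst1 and Hs6st2, and S1 and S2, with 6.27% and 9.80% spike-in reads, hold the lowest values of these genes.

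The Sirt6-Ctrl libraries were uneven across these genes. Replicate 2 was the lowest control for 14 of the 37 genes (33.3% of all genes), replicate 1 for 11 (20.1%), replicate 3 for 9 (25.3%) and replicate 4 for 3 (21.3%). Replicate 4 was the highest control for 18 of the 37 (21.3% of all genes), replicate 3 for 9 (25.9%), replicate 2 for 7 (34.4%) and replicate 1 for 3 (18.5%). The part of the spike-in share in the results, beyond the values given with those libraries left out or scaled, was not tested. With replicates 1 and 2 left out, 3 of the 37 were called higher, Chst11, Chst15 and Sulf1, and 1 lower, Chpf. Among all 14177 genes then tested, 810 were higher and 709 lower.

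Set side by side, the linker step had 0 higher and 1 lower of 6 and chondroitin 2 higher and 1 lower of 13. Heparan had 1 higher and 0 lower of 12, hyaluronan 0 of 1 and supply 1 higher of 5. Of all genes tested 8.02% were higher and 10.7% lower, so steps of this size cannot be ranked by their calls. The heparan call was Sulf1, which removes sulfate. Median log2 fold changes were -0.17 for the linker genes, 0.25 for chondroitin, 0.17 for heparan and 0.23 for supply, beside 1.25 for Has2 alone. These steps share libraries and were not tested against each other. Inside chondroitin, the sulfotransferases Chst11 and Chst15 were called higher and the chain factor Chpf lower, and 10 genes were not called. The chain genes had 3 positive and 3 negative log2 fold changes, and the sulfation genes 6 positive and 1 negative (6511 and 6739 over all genes). Among those 6, the signs of Dse and Chst3 turned in 4 alternatives each. The call of Chst11 was lost in 7 of 19 alternatives, and that of Chpf with spike-in scaling and in glmTreat. Of the 19, dropping the fold limit could not end a call.

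A ratio of paralogues in the same library does not depend on how libraries are scaled. Of 10 pairs listed, 8 had both genes, and their log2 ratios of reads were tested by exact permutation of the libraries (two-sided), adjusted over the 8. In 4 pairs the groups did not overlap, each with an exact permutation p = 0.0286, the smallest possible, which became 0.0571 on adjustment, so 0 of the 8 passed.
The ratio of Sulf1 to Sulf2 had log2 values of 2.68, 3.87, 5.45 and 5.46 in Sirt6-Ctrl and 6.72 to 7.22 in Sirt6-KD, a shift of 2.62 or 6.13-fold towards Sulf1. This was the widest shift of the 8. Without Sirt6-Ctrl replicates 1 and 2 it was 1.53. The ratio of Hs6st1 to Hs6st2 was 1.70, 2.18, -0.13 and -0.48 in Sirt6-Ctrl and -1.48 to -1.05 in Sirt6-KD, a shift of -2.12 towards Hs6st2, and of -0.99 without those 2 controls. The ratio of Xylt1 to Xylt2 shifted by 1.66 towards Xylt1, from -5.88 to -4.39 in Sirt6-Ctrl to -3.93 to -2.55 in Sirt6-KD. The ratio of Ext1 to Ext2 shifted by -0.49, from -0.95 to -0.46 in Sirt6-Ctrl to -1.30 to -0.99 in Sirt6-KD.

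In the other 4 pairs the groups overlapped. The shift was 1.27 for Chst11 over Chst12 (p = 0.0571, adjusted 0.0914, exact permutation test) and -0.57 for Chpf over Chpf2 (p = 0.0857, adjusted 0.114, exact permutation test). For Csgalnact1 over Csgalnact2 and Papss1 over Papss2 the shifts were 0.12 and 0.042, with an adjusted p of 0.771 for both (exact permutation test).

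**Figure D4:**
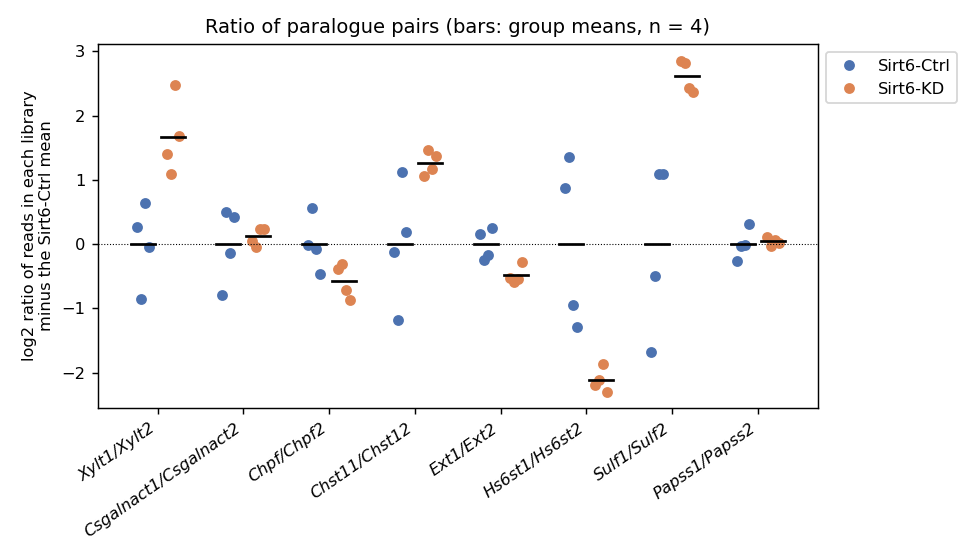
Log2 ratio of the reads of 8 paralogue pairs in each library, minus the Sirt6-Ctrl mean of the pair (y axis), for 4 Sirt6-Ctrl (blue) and 4 Sirt6-KD (orange) libraries, with bars at group means. Sulf1/Sulf2, Xylt1/Xylt2, Hs6st1/Hs6st2 and Ext1/Ext2 have groups that do not overlap.

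Other genes of the pathway were taken from 4 further lists. Of 24 further synthesis and transport genes, 15 were tested, with 1 called higher and 2 lower (8.02% and 10.7% of all genes) and a median log2 fold change of -0.12. Ndst3, a second N-deacetylase/N-sulfotransferase of heparan sulfate, had 1.61, 2.78, 5.59 and 1.60 CPM in the Sirt6-Ctrl group and 13.3, 15.5, 17.0 and 12.6 CPM in Sirt6-KD. Its log2 fold change of 2.33 (SE 0.42, edgeR adjusted p = 0.00638) was above that of any of the 37 genes. Both genes called lower are transporters of activated sulfate or sugars: Slc35b2, a PAPS transporter, at -1.08 (adjusted p = 0.00333) and Slc35d1, a nucleotide sugar transporter of the endoplasmic reticulum, at -0.97 (adjusted p = 0.0382). With spike-in scaling these were at -0.044 and 0.030 and Ndst3 at 3.16, none of them called. The call of Slc35d1 was also lost without Sirt6-Ctrl replicate 1, 2 or 4 (at -0.83 or lower, adjusted p = 0.0666 to 0.082) and without Sirt6-KD replicate 1, 2 or 3 (-0.94 to -0.84, adjusted p = 0.105 to 0.114).

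Keratan sulfate is a further sulfated GAG that aggrecan carries. Among the 6 tested of 9 genes listed for it, 1 was called higher and 1 lower (8.02% and 10.7% of all genes). Chst2, a 6-O-sulfotransferase of N-acetylglucosamine, was higher (log2 fold change 1.10, edgeR adjusted p = 0.00678) and B4galt4, a galactosyltransferase, lower (-2.09, edgeR adjusted p = 0.0058). Neither was called with spike-in scaling, where Chst2 was at 1.94 and B4galt4 at -0.98. Of 19 genes of GAG breakdown, 15 were tested, with 0 called higher and 2 lower (8.02% and 10.7% of all genes). These were the lysosomal beta-galactosidase Glb1 at -0.99 (adjusted p = 0.00412) and Hexa, the alpha subunit of beta-hexosaminidase, at -0.86 (adjusted p = 0.0101), which turned to 0.043 and 0.26 with spike-in scaling. Without Sirt6-Ctrl replicates 1 and 2 Hexa was at -0.53, within the fold limit, and Glb1 at -0.84 and still called. The median of the 15 was -0.11.

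Of 25 core proteins and other carriers of GAG chains, 20 were tested, with 5 called higher and 2 lower (8.02% and 10.7% of all genes) and a median log2 fold change of 0.18. Higher were the hyaluronan-binding chondroitin sulfate proteoglycan Vcan (1.63, adjusted p = 0.0169), the heparan sulfate carriers Tgfbr3 (1.64, adjusted p = 0.00835), Gpc6 (0.97, adjusted p = 0.0269) and Col18a1 (0.91, adjusted p = 0.0237), and the hyaluronan receptor Cd44 (0.62, adjusted p = 0.0136). Lower were Dcn, a small proteoglycan with a dermatan or chondroitin sulfate chain (-1.71, adjusted p = 0.00421, and -0.51 without a call with spike-in scaling), and the glypican Gpc1 (-0.92, adjusted p = 0.00244, but 0.067 with spike-in scaling). None of the 5 higher genes was called with spike-in scaling (1.56 to 2.43), and without Sirt6-Ctrl replicates 1 and 2 the calls of Cd44 (0.57), Gpc6 (0.65) and Col18a1 (0.81) were lost. Cd44 lost its call without Sirt6-Ctrl replicate 4 and without Sirt6-KD replicate 2 or 3 (0.56 to 0.61), and Vcan without Sirt6-KD replicate 3 (1.46, adjusted p = 0.0533). Gpc6 and Col18a1 lost theirs without Sirt6-Ctrl replicate 1 (0.80 and 0.78) and without Sirt6-KD replicate 1, 2 or 3 (0.81 to 1.04), and Gpc6 without Sirt6-KD replicate 4 (0.90). Acan, the chief chondroitin sulfate carrier of the NP, was not called, with 4.54, 15.5, 8.83 and 55.7 CPM in the Sirt6-Ctrl group and 11.1, 15.5, 9.80 and 18.7 CPM in Sirt6-KD (log2 fold change -0.62, SE 0.63, adjusted p = 0.52).

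**Figure D5:**
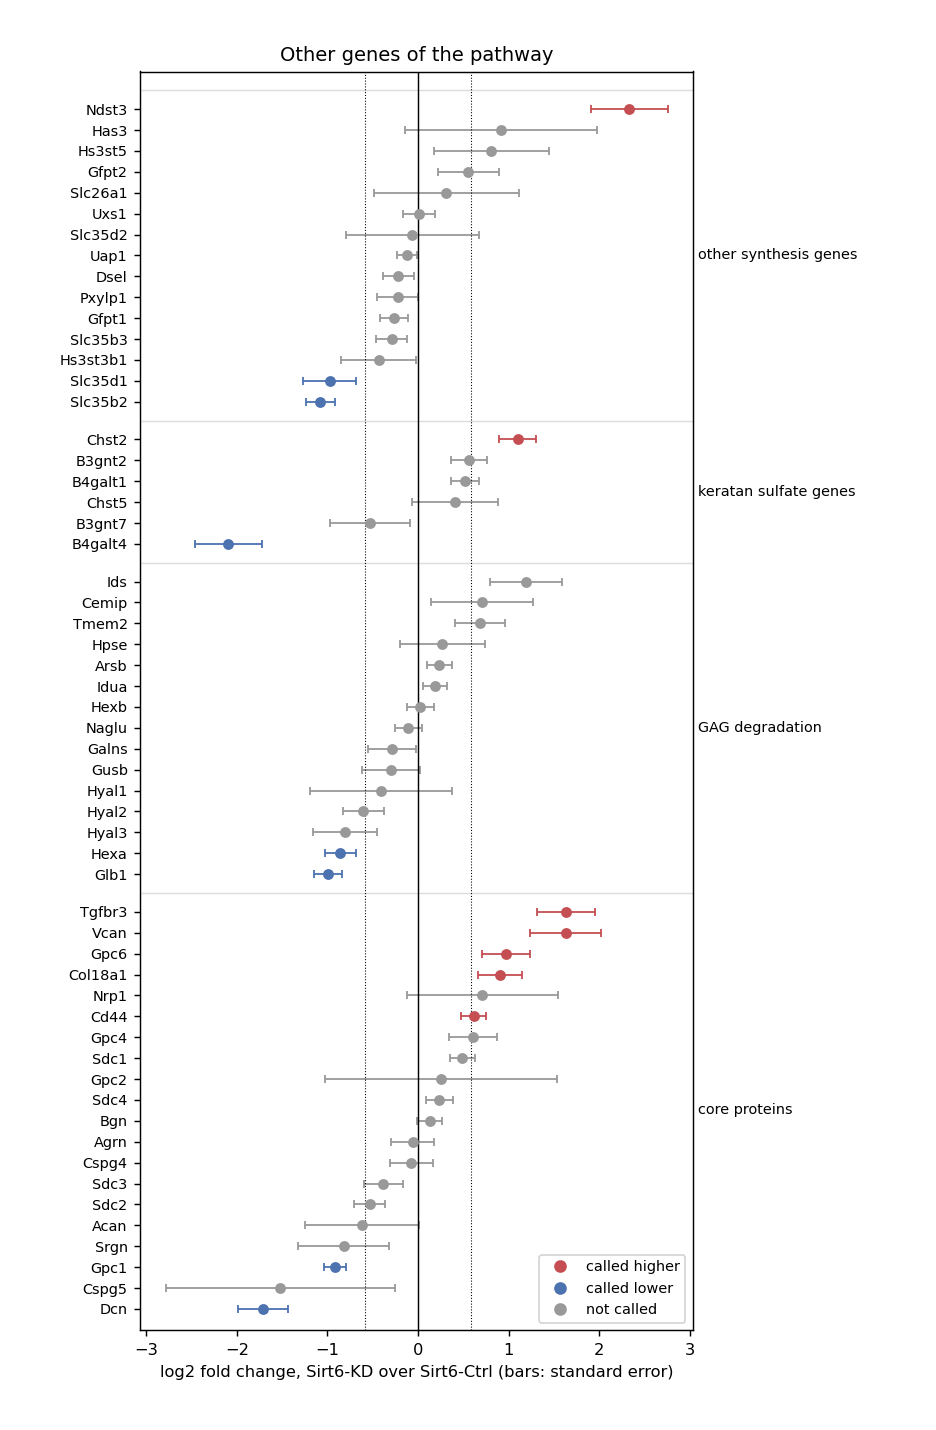
Log2 fold change (x axis, Sirt6-KD over Sirt6-Ctrl, TMM scaling, bars are standard errors) of the tested genes of the 4 further lists, with genes called higher in red and called lower in blue. Ndst3 (2.33) and B4galt4 (-2.09) lie farthest from 0 among the genes called.

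The cells were checked against marker genes. Of 13 NP markers, 8 had a named row, with a summed level of 231 to 261 CPM in the Sirt6-Ctrl group and 215 to 234 CPM in Sirt6-KD. Of these Krt8 was low in all libraries (2.24 to 10.7 CPM) and called lower (log2 fold change -1.32, adjusted p = 0.0441), as was Car3 (-2.70, adjusted p = 0.0127). Pax1 passed the test within the fold limit (-0.43, adjusted p = 0.0459). Car12 lay the other way without a call, with a mean of 28.4 ± 31.0 against 82.1 ± 10.8 CPM (SD, n = 4, log2 fold change 1.53, adjusted p = 0.0776), and it made up a large part of the Sirt6-KD sum. Sox9 was at 0.48, Foxf1 at -0.29, Cd24 at -0.98 and Acan at -0.62, none of them called. Col2a1, Krt18, Krt19 and T were not analysed here. Markers of annulus cells and fibroblasts (7 of 8 with a row) summed to 14530 to 27480 CPM in the Sirt6-Ctrl group and 8671 to 18520 CPM in Sirt6-KD, and most of either sum was Col1a1 (13290 to 25210 and 7961 to 17460 CPM, log2 fold change -0.63, adjusted p = 0.15). Col3a1 (-1.38, adjusted p = 0.00812) and Scx (-1.20, adjusted p = 0.049) were called lower. Pdgfra was at 0.82, Thy1 at -0.76, Mkx at -0.48 and Col1a2 at -0.089, none of them called. Markers of blood and immune cells (3 of 9) summed to 11.9 to 29.7 and 15.0 to 23.9 CPM, those of muscle (2 of 5) to 105 to 205 and 131 to 166 CPM, and the endothelial gene Tek (1 of 6) to 0 to 0.509 and 0.179 to 0.592 CPM. The part of a changed mix of cells in the values above was not tested.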

How the data were processed

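Total RNA of primary rat NP cells was sequenced by Azenta. Raw counts, not normalized, were deposited by the authors for Ensembl genes and ERCC spike-ins in 32975 rows for 8 libraries. The submitters' processing notes name Trimmomatic 0.36, STAR 2.5.2b, featureCounts of Subread 1.5.2, DESeq2 and the Rnor 6.0 build; strand settings are not given in the sources used here, so overlapping and antisense genes cannot be told apart. A deposited table of the authors' own comparison holds normalized signal (the counts divided by 1 size factor per library) and their fold changes and p-values, which were not used; it gave the gene names of 13612 rows. Counts were fitted with edgeR 4.0.16 (R 4.3.3; filterByExpr, TMM, glmQLFit and glmQLFTest, two-sided, Benjamini-Hochberg over 13313 rows, 63 of them spike-ins, which stayed in the fit and took 2.15% to 9.80% of counts). SE is the size of the log2 fold change divided by the square root of F. Self-checks were run on simulated data. Alternatives were DESeq2 1.42.0, limma 3.58.1 (voom), other scalings and filters, and leaving libraries out. Paralogue ratios used a pseudocount of 0.5 and exact permutation tests (scipy 1.17.1); adjustment was over the 8 usable of 10 pairs. The floor of 3 counts covers counting error only, while the SE, taken from the fit, also includes the spread between libraries. Every one of the 37 genes was named; genes called, Has2 and, in steps without a call, the gene of smallest p were given per library. The genes and lists were chosen with earlier results of these data known. The libraries are 4 independent experiments per group, and the series text speaks of 4 rats and of respective controls, but no label says which control and knockdown library share a rat. Replicate numbers follow accession order and only name libraries, so the tests leave out any pairing by rat, whose part was not tested. Chst7, Ndst2 and Impad1, without a row under those names, were not analysed here. A gene of the further lists is not reported here and was left out of their counts.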

Additional observations from a re-analysis of the deposited data

Results flagged for a closer look

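In 3 of 92 groups of 4 libraries examined (76 of single genes, Sirt6 included, and 16 of paralogue ratios), 1 library stood apart from the other 3 by more than Dixon's 95% limit for the gap as a share of the group's whole range, against 4.6 such groups by chance at 1 in 20. Chsy3, a chondroitin synthase, had its highest Sirt6-KD value in replicate 4, with a gap of 0.835 of the range. Hs6st2, a heparan 6-O-sulfotransferase, also had its highest Sirt6-KD value in replicate 4, with a gap of 0.939 of the range. Ext1, a heparan polymerase subunit, had its highest Sirt6-Ctrl value in replicate 4, with a gap of 0.947 of the range.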

How the results depend on the processing

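Chst15 was called in all alternatives, although dropping the fold limit could not end a call. RLE, upper-quartile scaling, no filter, spike-in rows removed and robust dispersion each left the same 4 genes higher and 2 lower. DESeq2 called 5 and 3, adding Xylt1 and Sulf2, with 1587 higher and 1721 lower among all genes. Limma-voom called 8 and 2, adding Extl3, Ndst1, Hs6st2 and Has2 (median of the supply genes 0.60). It had 1591 higher and 1309 lower among all genes, against 1063 and 1416 in the main fit. With spike-in scaling 20 genes in all were higher and 4 lower, 1 and 0 of them among the 37; medians were 1.09 for the 37, 0.77 for linker, 1.11 for chondroitin, 1.31 for heparan and 1.04 for supply genes, against 0.94 over all genes. There the sign turned for Xylt2 (0.68), B4galt7 (0.61), B3gat3 (0.15), Fam20b (0.86), Chsy3 (0.50), Chpf (0.025), Chpf2 (0.46), Chst14 (0.70), Ext1 (0.75), Extl2 (0.71), Glce (0.88), Hs6st1 (0.62) and Sulf2 (0.25), and all of these values were below 0.94. Against a fold of 1.5 in glmTreat 92 genes were higher and 185 lower, 1 and 0 of the 37. Without the 2 controls of high spike-in share 709 genes were lower, 1 of the 37 (Chpf), and the sign turned for B3galt6 (-0.11), Chst3 (-0.22), Dse (-0.27), Papss1 (-0.0088) and Slc26a2 (-0.32). Glce, near 0, turned with DESeq2 (0.015), limma-voom (0.00051), RLE (0.015), upper-quartile scaling (0.034), spike-in rows removed (0.025) and no filter (0.032), and Chsy3 with limma-voom (0.55).
With single libraries left out, 445 to 1699 genes were higher and 700 to 1913 lower, and of the 37, 1 to 7 were higher and 2 to 5 lower. Without any 1 Sirt6-KD library only Chst15 stayed higher. Medians ran from 0.094 to 0.54 for chondroitin and 0.11 to 0.50 for supply genes. Signs turned within -0.10 to 0.0057 for Fam20b, -0.41 to 1.34 for Chsy3, -0.97 to 1.19 for Chst3, -0.093 to 0.32 for Dse, -0.069 to 0.088 for Glce, -0.34 to 1.08 for Hs3st1 and -0.16 to 0.50 for Slc26a2. The causes were not tested. No paired analysis was possible because no label says which control and knockdown library share a rat.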
